A study of Drosophila melanogaster with 34 samples.

Results

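Transcript levels of 37 digestive peptidase genes of the *Drosophila melanogaster* midgut were examined in females of 6 inbred strains kept with or without copper. The genes were taken from a named list: 16 *Jonah* genes, 11 trypsin genes, 5 other serine peptidase genes (*yip7*, *Ser8*, *Ser12*, *CG11911* and *CG11912*) and 5 carboxypeptidase genes (*CG17633*, *CG8560*, *CG8562*, *CG32379* and *CG18417*). All 37 were found among the 16495 genes of the count table. The strains were derived from European flies and inbred for 20 generations, and each is a single inbred line. GIM-012, MUN-008 and MUN-020 are copper tolerant and AKA-018, COR-018 and JUT-008 are copper sensitive, so each class is represented by 3 strains. Whole bodies of 20 mated females, aged 3 to 7 days by the sample labels (the published methods state a slightly different age range), were pooled for each RNA-seq library after the flies had fed for 24 h on 5% sucrose, either plain (control) or holding 20 mM CuSO4 (copper). Each strain has 3 libraries of either treatment, but AKA-018 and MUN-020 have only 2 controls each, giving 34 libraries in all, with 8 control and 9 copper libraries per class. Dead flies of COR-018 and JUT-008 were discarded by the authors before extraction, so the copper libraries of these strains hold survivors.

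Trypsins, the chymotrypsin-like Jonah enzymes and carboxypeptidases are made by enterocytes, the absorptive cells of the midgut, and secreted into the lumen. Trypsins and Jonah enzymes cut proteins internally, trypsins after basic residues, and carboxypeptidases then release amino acids from the C-terminal end of the resulting peptides. Their transcripts are among the most abundant of the fly midgut, and their levels are known to follow feeding and diet.

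The libraries held 22796637 to 42567920 counted reads. Levels are given as CPM (reads of a gene relative to all counted reads, scaled to the library) normalized by the TMM method, and changes as log2 fold changes ± standard error from edgeR's quasi-likelihood test. Adjusted *p*-values are from that test, with Benjamini-Hochberg adjustment over all genes tested. A gene was called changed by copper at an adjusted *p* below 0.05 and a fold change over 1.5. Because whole bodies were sequenced, fewer enterocytes and less RNA per enterocyte cannot be told apart. Transcripts of 3 male accessory gland genes exceeded 1 CPM in 9 libraries, all of sensitive strains and 5 of them controls. The deposited count table is named as one from which males were removed, without a statement of what this took out.

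The 37 genes lie on chromosome arms 2L (7 genes), 2R (13), 3L (12) and 3R (5) of the dm6 genome, and 32 of them lie within 50000 bp of another member, in 8 clusters. All 11 trypsin genes sit in one cluster on 2R between positions 11336840 and 11357537. *yip7*, *Jon65Aiv*, *Jon65Aiii*, *Jon65Aii* and *Jon65Ai* lie in one cluster on 3L between 6035216 and 6054443, and 4 of the 5 carboxypeptidase genes between 7396355 and 7404181 of the same arm. Reads that mapped to several places were discarded before counting, so the levels of close copies are less certain than those of single genes. This concerns *gammaTry* and *deltaTry* most, which are known as near-identical copies. *gammaTry* had no count in 32 libraries and at most 3 in any, and *deltaTry* had at most 18. *gammaTry* was tested in no comparison, and *deltaTry* in the tolerant strains, in MUN-008 and in the comparisons of all strains only.

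In control libraries the most abundant transcripts per length were those of the digestive trypsins *alphaTry*, at 2021 CPM per kb (SD 1021, n = 16), and *betaTry*, at 989 CPM per kb (SD 533). *Jon65Aiv* (807 CPM per kb), *yip7* (646) and *Jon65Aiii* (628) followed. The SDs of these 5 genes exceeded the steps between neighbours in this order except between *alphaTry* and *betaTry*, and they include the differences among strains. At the other end, *Jon66Cii* reached 0.338 CPM per kb (SD 0.531), *deltaTry* 0.271 and *gammaTry* 0.0119. *alphaTry* alone accounted for 23.1% of the summed CPM of the 37 genes in controls, and *alphaTry*, *betaTry*, *Jon65Aiv* and *yip7* together for 54.7%.

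Summed over the 37 genes, the peptidase transcripts took 0.132% to 1.15% of the counted reads of a library. The sum was lower with copper in 5 strains, with no overlap between copper and control libraries, and not in GIM-012. In COR-018 it was 5926 to 8556 CPM in controls and 1206 to 1816 CPM with copper, a mean 4.67 times lower. In AKA-018 it was 9202 to 11226 CPM against 3092 to 4318 CPM (2.80 times lower), and in JUT-008 3011 to 5556 CPM against 1836 to 2147 CPM (2.33 times lower). The tolerant MUN-008 and MUN-020 had means 1.71 and 1.67 times lower with copper. In MUN-008 the controls were at 6952 to 8927 CPM and the copper libraries at 4490.5 to 5010.3 CPM, and in MUN-020 at 12672 to 12812 CPM and 7234 to 8349 CPM. In GIM-012 the copper libraries (4801 to 6908 CPM) overlapped the controls (3969 to 6134 CPM), and their mean was 1.24 times higher. Carboxypeptidase transcripts had the widest range of the 4 groups of genes, from 6.95 times lower with copper in COR-018 to 1.10 times higher in GIM-012.

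**Figure D1:**
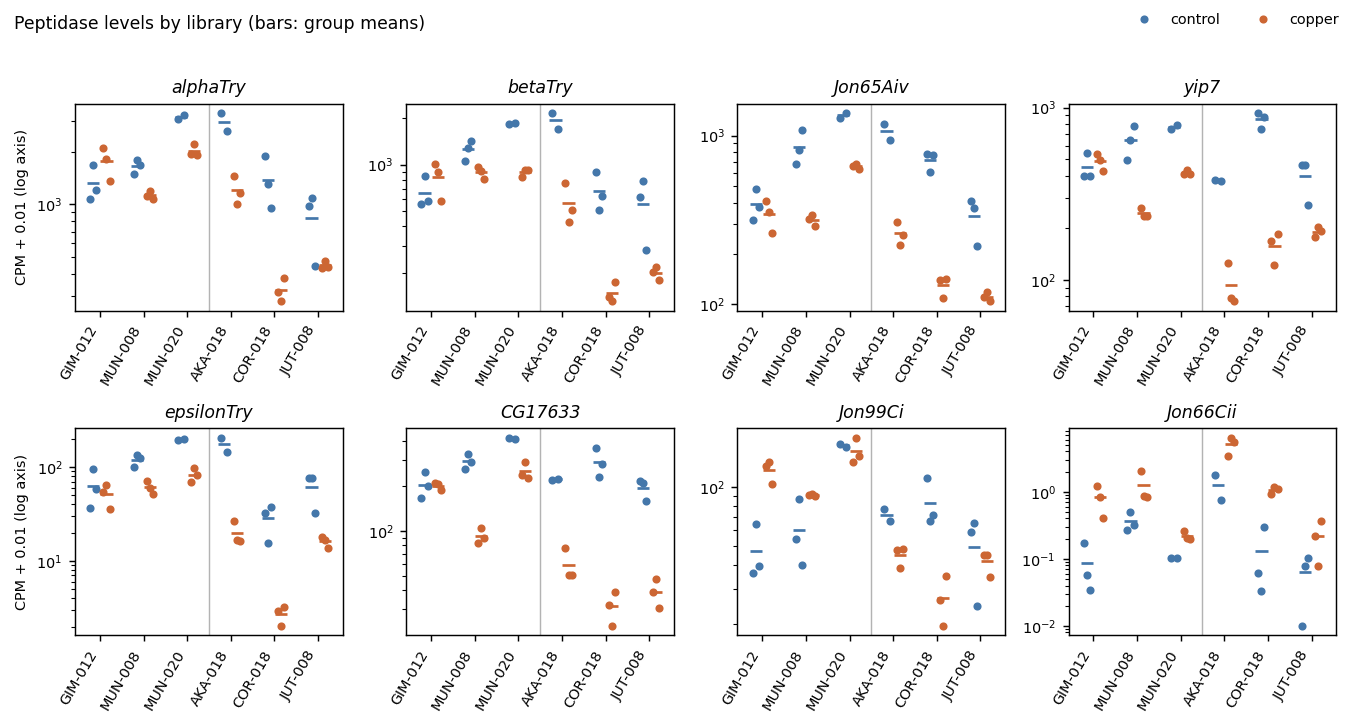
TMM-normalized CPM plus 0.01 (log axis) of 8 peptidases in each library, by strain, with control libraries in blue, copper libraries in orange and group means as bars; tolerant strains are left of the grey line. *epsilonTry* and *CG17633* sit lower with copper in every sensitive strain and overlap between treatments in GIM-012, while *Jon66Cii* sits higher with copper, without overlap, in 5 of 6 strains.

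In the sensitive strains, copper lowered most of these genes. Of 35 members tested, 27 were called lower and 1 higher, where 5.94% of all 12308 genes tested were called lower and 1.81% higher. The median log2 fold change was -1.56 over the members and -0.019 over all genes, and 34 of the 35 had a negative value. Among the trypsins 8 of 9 fell, among the *Jonah* genes 12 of 16, among the other serine peptidases 3 of 5 and among the carboxypeptidases 4 of 5. All 28 calls were made again in each of the 17 fits without 1 library. With the counts of a strain and treatment summed, so that the 3 strains are the replicates, no gene of the genome was called, 27 of the 36 members tested had an unadjusted *p* below 0.05 (all genes 23.2%), and their median was -1.48. Without the libraries with male accessory gland transcripts, a choice made after seeing the data that also removed AKA-018 and left 5 libraries, 2 members were called (all genes 0.582%), and 32 of 35 had a negative value with a median of -1.14.

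*epsilonTry*, a trypsin of the 2R cluster, fell most in the sensitive strains. It was at 15.7 to 206 CPM (median 57.0, n = 8) in controls and 2.02 to 26.4 CPM (median 16.2, n = 9) with copper, 6.94-fold lower (-2.80 ± 0.27, adjusted *p* = 5.59e-06). The ranges of both treatments overlapped across strains but not within any of the 3. In COR-018 the controls were at 32.8, 15.7 and 38.1 CPM and the copper libraries at 2.88, 2.02 and 3.20 CPM, with no overlap. *thetaTry* was at 75.3 to 163 CPM (median 117, n = 8) in controls and 8.89 to 40.0 CPM (median 16.4, n = 9) with copper, so that every copper library lay below every control (-2.64 ± 0.22, adjusted *p* = 1.56e-06). The abundant *alphaTry* was at 444 to 3310.2 CPM (median 1194, n = 8) in controls and 282 to 1442 CPM (median 439, n = 9) with copper and fell 2.70-fold (-1.44 ± 0.21, adjusted *p* = 2.16e-04). *betaTry* was at 283 to 2145 CPM (median 705, n = 8) in controls and 132 to 756 CPM (median 205, n = 9) with copper and fell 3.52-fold (-1.82 ± 0.19, adjusted *p* = 1.42e-05). Both overlapped between treatments, as copper libraries of AKA-018 reached the levels of JUT-008 controls. *zetaTry*, at 18.6 to 38.8 CPM (median 24.9, n = 8) in controls and 3.06 to 9.91 CPM (median 7.54, n = 9) with copper, did not overlap (-1.92 ± 0.22, adjusted *p* = 3.12e-05). The other called trypsins, *etaTry*, *iotaTry* and *lambdaTry*, had log2 fold changes between -0.75 and -0.90. *kappaTry*, at -0.49 ± 0.12 (adjusted *p* = 0.0111), passed the test but not the fold-change threshold.

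Among the *Jonah* genes, which encode chymotrypsin-like endopeptidases, *Jon99Fi* was at 9.05 to 119 CPM (median 42.4, n = 8) in controls and 0.505 to 33.8 CPM (median 10.7, n = 9) with copper and fell 6.41-fold (-2.68 ± 0.34, adjusted *p* = 7.51e-05). In COR-018 it went from 20.6, 9.05 and 19.3 CPM to 0.612, 0.505 and 0.836 CPM, the largest fall of any member in a single strain (-4.62 ± 0.40, adjusted *p* = 0.00247). Its neighbour *Jon99Fii* was at 99.9 to 183 CPM (median 149.6, n = 8) in controls and 12.0 to 62.8 CPM (median 35.0, n = 9) with copper, without overlap (-2.28 ± 0.19, adjusted *p* = 1.47e-06). Both genes lie 1034 bp apart on 3R. *Jon65Aiv*, the most abundant *Jonah* transcript, was at 941 and 1178 CPM in the AKA-018 controls and at 309, 225 and 257 CPM with copper. It was at 774, 612 and 766 CPM in the COR-018 controls and at 139, 109 and 141 CPM with copper, and in JUT-008 it was at 409.7, 374 and 221 CPM and 111, 118 and 105 CPM. Copper and control libraries were thus separated within each of these strains, and over the sensitive strains *Jon65Aiv* fell 4.08-fold (-2.03 ± 0.15, adjusted *p* = 3.10e-07). *Jon65Aii* (-2.66 ± 0.30), *Jon65Ai* (-2.22 ± 0.26) and *Jon65Aiii* (-1.56 ± 0.13) of the same cluster also fell. *Jon25Biii*, the abundant gene of the *Jon25B* cluster, was at 219 to 661 CPM (median 344, n = 8) in controls and 54.5 to 279 CPM (median 230.4, n = 9) with copper (-1.33 ± 0.21, adjusted *p* = 3.70e-04), whereas *Jon25Bi* (-0.33 ± 0.32, adjusted *p* = 0.472), *Jon25Bii* (-0.02 ± 0.28, adjusted *p* = 0.969) and *Jon66Ci* (-0.74 ± 0.53, adjusted *p* = 0.320) were not called.

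The serine peptidase gene *yip7* was at 273 to 929 CPM (median 466, n = 8) in controls of the sensitive strains and at 75.1 to 202 CPM (median 167, n = 9) with copper, with no overlap, and fell 3.58-fold (-1.84 ± 0.20, adjusted *p* = 1.57e-05). *Ser8*, a trypsin-like gene, was at 4.09 to 26.3 CPM (median 15.1, n = 8) in controls and 1.64 to 12.1 CPM (median 8.84, n = 9) with copper, with overlap, and fell 2.14-fold (-1.10 ± 0.18, adjusted *p* = 4.73e-04). *CG11911* fell over the class (-1.70 ± 0.39, adjusted *p* = 0.00629), but its strains differed. It was at 51.4, 66.2 and 41.9 CPM in JUT-008 controls and at 7.29, 5.26 and 5.58 CPM with copper, while in COR-018 controls (6.78, 14.8 and 27.4 CPM) and copper libraries (15.3, 7.66 and 17.6 CPM) overlapped. *CG11912*, which lies 1019 bp from *CG11911*, and *Ser12* were not called (-0.79 ± 0.39 and -0.86 ± 0.29, adjusted *p* = 0.144 and 0.0513).

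The carboxypeptidase gene *CG17633* was at 158 to 362 CPM (median 222, n = 8) in controls of the sensitive strains and at 23.1 to 77.1 CPM (median 39.1, n = 9) with copper. No copper library reached a control, and the fall was 5.76-fold (-2.53 ± 0.20, adjusted *p* = 5.77e-07). *CG8560* was at 94.9 to 149 CPM (median 135, n = 8) in controls and at 13.2 to 40.8 CPM (median 34.6, n = 9) with copper (-2.27 ± 0.19, adjusted *p* = 1.40e-06), and *CG8562* at 105 to 159.6 CPM (median 118, n = 8) and 14.6 to 52.1 CPM (median 43.7, n = 9) (-1.93 ± 0.20, adjusted *p* = 1.01e-05). Neither overlapped between treatments. *CG32379*, the least abundant of the group, was at 1.69 to 7.27 CPM (median 5.86, n = 8) in controls and 0.540 to 4.06 CPM (median 1.51, n = 9) with copper and fell 3.10-fold (-1.63 ± 0.18, adjusted *p* = 1.57e-05). *CG18417*, which lies between *CG8562* and *CG8560*, passed the test but fell just short of the fold-change threshold (-0.58 ± 0.12, adjusted *p* = 0.00242).

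In the tolerant strains, fewer members were called. Of 36 members tested, 6 were lower and 1 higher, where 0.509% of all 11602 genes tested were lower and 1.02% higher. The median log2 fold change was -0.26 over the members and -0.0037 over all genes, and 28 members had a negative value. The members called lower were *CG11911* (-0.98 ± 0.16, adjusted *p* = 0.00238), *Jon65Aiv* (-0.87 ± 0.17, adjusted *p* = 0.00750), *epsilonTry* (-0.82 ± 0.19, adjusted *p* = 0.0209), *CG17633* (-0.81 ± 0.19, adjusted *p* = 0.0303), *yip7* (-0.72 ± 0.19, adjusted *p* = 0.0471) and *Jon65Aiii* (-0.66 ± 0.16, adjusted *p* = 0.0339). All 6 were also called lower in the sensitive strains. *Jon65Aiv* was at 318 to 1361 CPM (median 750.0, n = 8) in tolerant controls and 265 to 682 CPM (median 354, n = 9) with copper, and *CG11911* at 30.8 to 320.5 CPM (median 96.2, n = 8) and 30.0 to 137 CPM (median 37.7, n = 9), both with overlap across strains. The trypsins *alphaTry* (-0.24 ± 0.15) and *betaTry* (-0.36 ± 0.18), at 1070.4 to 2211 CPM (median 1814, n = 9) and 579 to 1016 CPM (median 906, n = 9) with copper, were not called (adjusted *p* = 0.624 and 0.451). Of the 7 calls, 3 (*Jon65Aiv*, *CG11911* and *Jon66Cii*) were made again in every fit without 1 library. The count was 4 without replicate 2 of the GIM-012 controls, without any 1 of the MUN-008 copper libraries, without replicate 1 of the MUN-020 copper libraries or without replicate 2 of the MUN-020 controls (all genes 1.23% to 1.56%). Leaving out a strain moved the count further: 18 members were lower and 1 higher without GIM-012 (all genes 2.3% in either direction), 1 was lower and 2 were higher without MUN-020 (2.04%), and none was lower and 1 higher without MUN-008 (0.742%). With strains as the replicates no gene was called, and 6 of 36 members had an unadjusted *p* below 0.05 (all genes 4.29%).

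Fitted strain by strain, members were called lower with copper in every strain but GIM-012. In MUN-008, 13 of 35 members tested were called lower (all genes 0.696%), with a median of -0.67. In MUN-020, 19 of 34 were lower (all genes 2.24%), with a median of -0.62. In the sensitive strains 24 of 35 were lower in AKA-018 (all genes 5.47%), 24 of 34 in COR-018 (all genes 8.17%) and 18 of 31 in JUT-008 (all genes 3.11%), with medians of -1.35, -2.06 and -1.35. In AKA-018 the 3 male accessory gland genes were also called lower with copper (median -9.29). Male transcripts and treatment thus went together in that strain, and their part in its counts was not tested. The single member called higher in AKA-018 (all genes 0.953%) and in COR-018 (all genes 2.2%) was *Jon66Cii*. In GIM-012, 5 of 35 members were called higher (all genes 3.47%) and none lower (all genes 2.15%), with a median of 0.47 over the members and 0.07 over all genes. Scaled by library size alone, these medians were 0.36 and -0.05, and 5 members were again called higher. DESeq2 called no member lower in GIM-012 either and called 10 higher, while its calls over all genes in either direction were 12.3%, against 5.62% by edgeR. At an unadjusted *p* below 0.05 by edgeR, 13 of 35 members of GIM-012 were counted in either direction, close to the 31% of all genes. The 2 members highest above control in GIM-012 were *Jon66Cii* (3.36 ± 0.65, adjusted *p* = 0.0380) and *Jon99Ci* (1.37 ± 0.23, adjusted *p* = 0.0324), followed among the called genes by *CG18417* (1.00 ± 0.19), *kappaTry* (0.92 ± 0.20) and *lambdaTry* (0.88 ± 0.20).

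**Figure D2:**
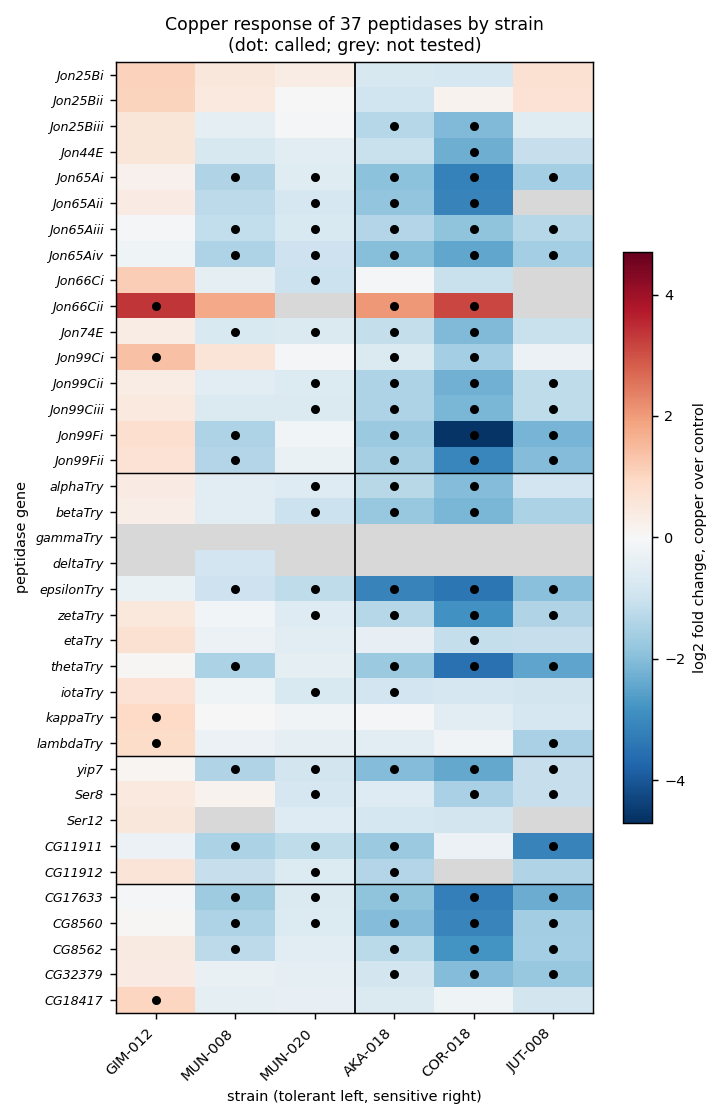
Log2 fold change of copper over control for the 37 peptidases (rows, by group of genes) in each strain (columns, tolerant left and sensitive right), with blue for lower, red for higher, dots for calls at an adjusted p below 0.05 and a fold change over 1.5, and grey for members not tested. Blue runs through MUN-008, MUN-020 and the 3 sensitive strains and is darkest in COR-018, while GIM-012 is pale or red.

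Single libraries decided part of these counts, and the share of all genes called moved in the same fits. In GIM-012 no member was called without replicate 1 or 4 of the controls or replicate 2 of the copper libraries (all genes 0.0804%, 0.0806% and 0.251%), and 14 were called higher without replicate 2 of the controls (all genes 11.8% in either direction). In MUN-008, 8 were called without replicate 4 of the copper libraries (all genes 0.503%). In MUN-020, which has 2 controls, 7 and 5 were called without replicate 1 or 2 of the controls (all genes 0.423% and 0.511%) and 8 without replicate 2 of the copper libraries (131 of 11090 genes). In JUT-008, 10 were called without replicate 1 of the controls and 9 without replicate 2 (all genes 1.85% and 1.71%), 10, 9 and 10 without replicate 1, 2 or 3 of the copper libraries (all genes 1.71%, 2.35% and 2.57%), and 27 without replicate 3 of the controls (all genes 6.63%). That library stood low in JUT-008: *alphaTry* was at 985, 1083 and 444 CPM and *betaTry* at 614, 780.3 and 283 CPM in the 3 controls, and with copper at 438, 478 and 439 CPM and 205, 218 and 181 CPM.

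Library by library, the order of treatments was counted as well. In MUN-020 the copper libraries all lay below the controls for 29 of 34 members (all genes 31.1%), in AKA-018 for 31 of 35 (all genes 16%), in JUT-008 for 25 of 31 (all genes 14.6%), in COR-018 for 25 of 34 (all genes 26.7%) and in MUN-008 for 20 of 35 (all genes 9%). In GIM-012 they lay below for none (all genes 17.6%) and above for 11 of 35 (all genes 19.7%). *CG17633* shows the contrast among the tolerant strains. In GIM-012 it was at 166, 248 and 202 CPM in controls and 209, 206 and 188 CPM with copper, which overlapped. In MUN-008 it was at 260.2, 327 and 292 CPM and 83.7, 104 and 90.3 CPM, and in MUN-020 at 415 and 422 CPM and 228, 237 and 291 CPM, with all copper libraries below the controls. *thetaTry* fell in MUN-008 (-1.51 ± 0.17, adjusted *p* = 0.00436), from 86.0, 116 and 96.3 CPM to 26.9, 38.1 and 39.8 CPM, and was at 0.06 ± 0.16 in GIM-012 (adjusted *p* = 0.811).

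Of the 36 members tested in at least 1 strain, 7 were called lower in 5 strains (all genes 0.206%): *Jon65Ai*, *Jon65Aiii*, *Jon65Aiv*, *epsilonTry*, *yip7*, *CG17633* and *CG8560*. In all 3 sensitive strains 15 were called lower (all genes 0.859%), and 29 in at least 1 strain (all genes 14.8%). The members called in no strain were *Jon25Bi*, *Jon25Bii*, *Ser12*, *deltaTry* and *gammaTry*. Of 30 members tested in each strain, 21 had a lower fold change in all 3 sensitive strains than in any tolerant strain (all genes 6.73%), and for 29 the fold change was highest in GIM-012 (all genes 40.3%). The exception was *CG11911*, with -0.28 in GIM-012 and -0.26 in COR-018. A model with a copper response for each strain found that this response differed among the strains for 32 of 36 members (all genes 30.1%), all but *Ser12*, *Jon66Ci*, *Jon66Cii* and *deltaTry*.

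The response to copper was then compared between classes by fitting all 34 libraries with a term for class by treatment. The interaction passed for 25 of 36 members, and in all 25 the fold change was more positive in the tolerant strains (all genes 3.41% in that direction and 0.719% in the other). It passed for 12 of 16 *Jonah* genes, 7 of 10 trypsins, 2 of 5 other serine peptidases and 4 of 5 carboxypeptidases. Of the 25, 24 were called lower in the sensitive strains, and the other was *kappaTry*. The lowest adjusted *p* was shared by *thetaTry* (difference 2.01 ± 0.31), *zetaTry* (1.87 ± 0.29) and *CG32379* (1.51 ± 0.24, adjusted *p* = 7.55e-04 for each), followed by *CG17633* (1.73 ± 0.29, adjusted *p* = 0.00158) and *epsilonTry* (1.99 ± 0.34, adjusted *p* = 0.00176). The difference was widest for *Jon99Fi* (2.41 ± 0.46, adjusted *p* = 0.00412). *CG11911*, which fell in both classes, did not pass this test (0.73 ± 0.44, adjusted *p* = 0.329).

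The number of members that passed depended on which strains were included. Without GIM-012 the interaction passed for 6 members (all genes 0.33%) and without COR-018 for 5 (all genes 0.179%), against 22 to 28 without any other strain (all genes 1.15% to 11.2%). With all strains, 4.13% of all genes passed. With strains as the replicates no gene of the genome passed, and 22 of 36 members had an unadjusted *p* below 0.05 (all genes 3.42%). With each pair of strain and replicate number as a block in place of strain, 0 of the 25 members passed. In that model libraries without a partner of equal number carry no weight in the copper response. The share of all genes that passed under it is not given here. Without the libraries with male accessory gland transcripts (and AKA-018) 1 member passed (all genes 0.404%), and 32 of 36 still had a positive difference with a median of 0.85.

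**Figure D3:**
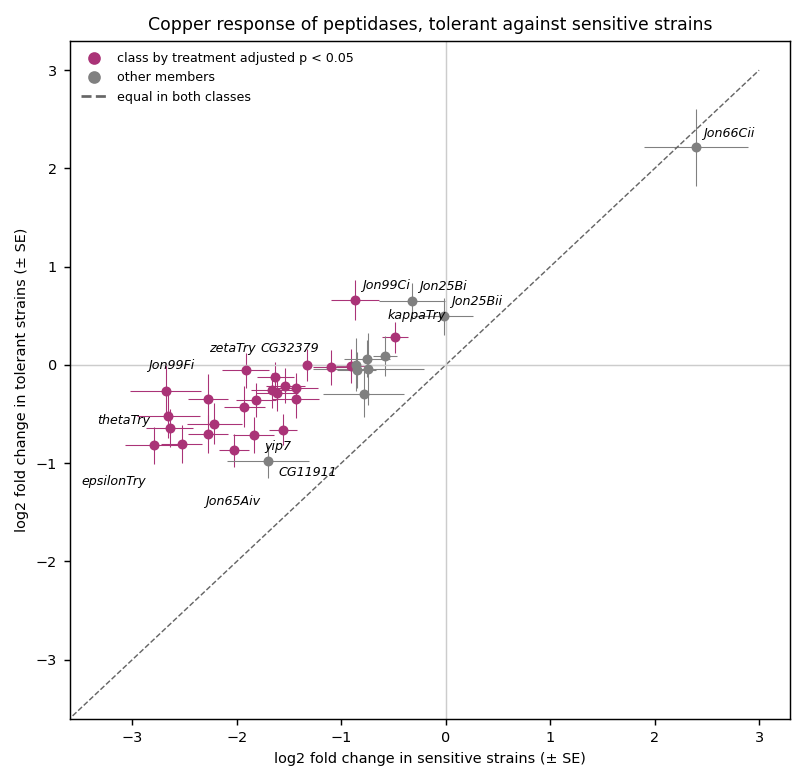
Log2 fold change of copper over control in tolerant strains (vertical axis) against sensitive strains (horizontal axis), each point one peptidase with standard errors as bars, in purple where the class by treatment interaction had an adjusted p below 0.05; the dashed line marks equal responses. All purple points lie above the line, *Jon66Cii* lies near it at about the same rise in both classes, and *Jon99Ci* and *kappaTry* are the purple points with positive values in tolerant strains.

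DESeq2 called 3 members higher in tolerant strains and 1 in sensitive strains (all genes in either direction 2.04% and 7.85%). By edgeR *Jon66Cii* was the only member called higher over a class, and it was so in both, 2.21 ± 0.39 in tolerant (adjusted *p* = 0.00338) and 2.40 ± 0.49 in sensitive strains (adjusted *p* = 0.00298). It is a scarce transcript, with at most 226 counts in a library. In AKA-018 it was at 0.743 and 1.75 CPM in controls and 3.43, 6.38 and 5.58 CPM with copper, and in COR-018 at 0.0512, 0.0226 and 0.286 CPM and 0.919, 1.16 and 1.08 CPM. In GIM-012 it was at 0.161, 0.0470 and 0.0242 CPM and 1.22, 0.833 and 0.390 CPM. Copper and control libraries did not overlap in these strains, nor in MUN-020, where it was not tested, or MUN-008, where it was 3.48-fold higher but not called (adjusted *p* = 0.154). The difference between classes was -0.20 ± 0.64 (adjusted *p* = 0.897). Without COR-018, *Jon66Cii* was not called in the remaining sensitive strains. Its neighbour *Jon66Ci*, 442 bp away on 3L, was called lower in MUN-020 (adjusted *p* = 0.0333) and in no other strain.

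*Jon99Ci* was at 0.66 ± 0.20 in tolerant strains, where edgeR did not call it (adjusted *p* = 0.115), and fell in sensitive strains (-0.87 ± 0.23, adjusted *p* = 0.0136). The paper, which used DESeq2, lists *Jon99Ci* among the genes raised by copper in tolerant strains and lowered in sensitive ones. In GIM-012 it was at 36.5, 64.6 and 39.5 CPM in controls and 128, 134 and 103 CPM with copper, and in MUN-008 at 54.0, 87.1 and 39.8 CPM and 90.5, 92.4 and 89.4 CPM. In MUN-020 controls (160.0 and 165 CPM) and copper libraries (143, 134 and 178 CPM) overlapped. With copper the sensitive strains were all below the tolerant ones, at 47.5, 38.5 and 48.5 CPM in AKA-018, 26.5, 19.6 and 35.3 CPM in COR-018 and 34.8 to 45.2 CPM in JUT-008, the latter overlapping its controls at 59.0, 65.3 and 24.6 CPM. *Jon99Cii* and *Jon99Ciii*, the other genes of this cluster, were called lower in all 3 sensitive strains and in MUN-020 (-0.65 ± 0.12 and -0.69 ± 0.14). *Jon25Bi* (0.65 ± 0.18, adjusted *p* = 0.0666) and *Jon25Bii* (0.49 ± 0.19, adjusted *p* = 0.245) had positive values in tolerant strains that edgeR did not call.

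Without copper, no member was called between the classes, while nearly all differed among the strains, as did most genes. No member was called between the 8 tolerant and 8 sensitive control libraries by edgeR (all genes 5.36%), where 1 had an unadjusted *p* below 0.05 (all genes 12.8%), and DESeq2 called 1 (all genes 6.57%). Without AKA-018 edgeR called 6 (all genes 9.01%). Among the 6 strains, 35 of 36 members differed (all genes 81.7%), the exception being *iotaTry* (adjusted *p* = 0.0841). Of the 37 genes 18 had their highest control mean in MUN-020 and none in JUT-008, which had the lowest mean of 14.

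Some of these strain differences were more than 100-fold. *Jon65Aii* was at 114 and 126 CPM in MUN-020 and at 0.297, 0.750 and 0.531 CPM in JUT-008, a ratio of means of 227, with COR-018 at 79.6, 75.4 and 85.2 CPM and the other strains between 9.78 and 44.9 CPM. *CG11912* was at 13.3, 21.0 and 10.2 CPM in GIM-012 and at 0.0512, 0.0452 and 0.200 CPM in COR-018, a ratio of 149.8 that rests on 2, 2 and 7 counts in COR-018. It was also low there with copper, at 0.128, 0.227 and 0.271 CPM. *Ser12* had no count in any of the 12 libraries of MUN-008 and JUT-008, while COR-018 controls were at 22.3, 15.0 and 34.9 CPM. Against a floor of 3 counts per library in MUN-008, COR-018 was at least 184-fold higher. *CG18417* was at 127 and 111 CPM in MUN-020 and between 5.43 and 23.8 CPM in all other controls, without overlap (adjusted *p* = 1.32e-08), whereas its neighbours *CG8560* and *CG8562* differed about 2-fold at most between strain means (ratios 2.09 and 1.97). *Jon44E* was at 3.03 and 4.76 CPM in AKA-018 and 3.38, 2.69 and 2.40 CPM in JUT-008, below every control library of the other 4 strains (16.9 to 39.1 CPM). In none of these 5 genes were the 3 strains of one class all above the 3 strains of the other.

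**Figure D4:**
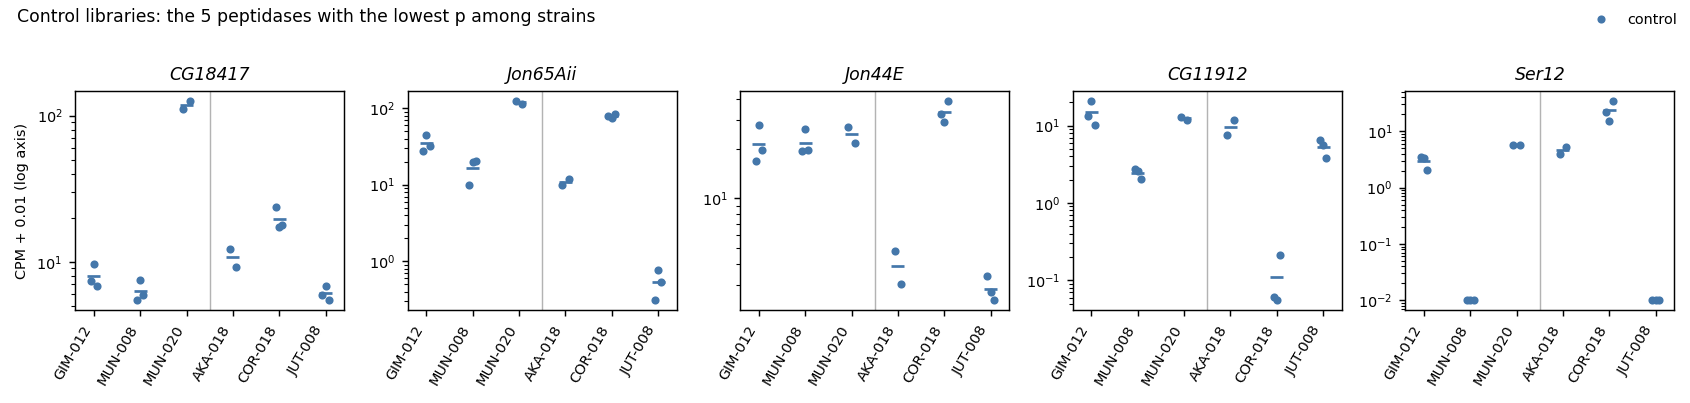
CPM plus 0.01 (log axis) of the 5 peptidases with the lowest p among strains in control libraries, one point per library with strain means as bars and tolerant strains left of the grey line. *Ser12* sits at the bottom of the axis (no count) in MUN-008 and JUT-008, *Jon65Aii* is lowest in JUT-008, *CG11912* in COR-018, and *CG18417* is highest in MUN-020.

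The members varied together across libraries. Over the 561 pairs of the 34 members with a mean of at least 1 CPM, the median Spearman's correlation of log2 CPM across the 34 libraries was 0.56, and 540 pairs were positive. With the mean of each strain and treatment subtracted, the median was 0.52 and 555 pairs were positive. These libraries share treatments, strains and normalization, so the values are given as a description. Other sets of genes were not examined in this way, so whether the peptidases differ from them was not tested.

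Other digestive enzymes were compared by lists. Among all genes tested, 5.94% were called lower in sensitive strains and 0.509% in tolerant strains. Of 18 further serine peptidases of the trypsin and chymotrypsin family, 16 were tested, and 8 fell in sensitive strains (median -0.63) and 1 in tolerant strains (median -0.03). Those that fell in sensitive strains included *CG8299* (-2.52 ± 0.44, adjusted *p* = 8.70e-04) and *CG17571* (-1.76 ± 0.13, adjusted *p* = 2.33e-07), and *CG17571* was the one lower in tolerant strains (-0.74 ± 0.18, adjusted *p* = 0.0351). Of the M1 aminopeptidases, which release amino acids from the N-terminal end of peptides, all 6 tested fell in sensitive strains (median -1.35) and none was called in tolerant strains (median -0.20). Of 9 further carboxypeptidases 3 fell in sensitive strains (median -0.43), among them *CG7025* (-2.09 ± 0.35, adjusted *p* = 6.03e-04), and of 8 tested in tolerant strains none was called (median -0.0028). The amylases *Amy-p* and *Amy-d*, which cut starch, were at 0.16 ± 0.19 and 0.21 ± 0.21 in sensitive strains (adjusted *p* = 0.553 and 0.486), and the amylase-related *Amyrel* rose in tolerant (2.27 ± 0.23, adjusted *p* = 1.58e-05) and sensitive strains (1.10 ± 0.28, adjusted *p* = 0.0115). The lysozyme *LysD* fell in sensitive strains (-1.53 ± 0.28, adjusted *p* = 0.00136). Of the 9 amylase and lysozyme genes tested there, 2 were called lower and 1 higher (median -0.22). Of 10 tested in tolerant strains, 1 was called higher and none lower (median 0.04).

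Of 9 genes tested that regulate the midgut or its enzymes, 4 fell in sensitive strains (all genes 5.94%) and 1 in tolerant strains (all genes 0.509%). *sug*, which encodes the sugar-responsive zinc-finger factor sugarbabe, fell in both (tolerant -0.78 ± 0.18, adjusted *p* = 0.0280; sensitive -1.77 ± 0.17, adjusted *p* = 4.37e-06). In sensitive strains *daw*, the activin-type ligand Dawdle, fell (-1.08 ± 0.15, adjusted *p* = 1.16e-04), as did the homeobox genes *lab* (-1.08 ± 0.28) and *dve* (-0.59 ± 0.14, adjusted *p* = 0.0112 and 0.00572). *GATAe*, the GATA factor of the midgut, was at -0.31 ± 0.13 (adjusted *p* = 0.0906) and *Hnf4* at 0.01 ± 0.06 (adjusted *p* = 0.953).

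Midgut markers were present in every library. Of 7 markers of enterocytes and of the acid-secreting region, none was called in tolerant strains and 3 were lower in sensitive strains (all genes 5.94%). The latter were *Vha100-4* (-1.96 ± 0.37, adjusted *p* = 0.00150), *Npc1b* (-1.66 ± 0.30, adjusted *p* = 0.00113) and *lab*. The enterocyte genes *mex1* (-0.23 ± 0.11, adjusted *p* = 0.133) and *Myo31DF* (0.04 ± 0.05, adjusted *p* = 0.625) were not called there. The summed level of the 7 markers was 127 to 297 CPM in sensitive controls and 110.0 to 296 CPM with copper, and 168 to 221 and 151 to 228 CPM in tolerant strains, with overlap in both. Some markers of other tissues also moved with copper in sensitive strains. The 5 ovary markers tested were *osk*, *Vm26Aa*, *Vm34Ca*, *Cp36* and *Cp38*. Of these 4 fell in sensitive strains (median of the 5 -3.86), while the other was at 0.07 and not called, so the fall did not cover the whole list. The list summed to 1869 to 4566 CPM in controls and 683 to 2373 CPM with copper (tolerant 2566 to 4108 and 990.4 to 2547 CPM, none called). Of 4 fat body, 4 haemocyte and 3 flight muscle markers, 2 of each list were lower in sensitive strains (all genes 5.94%). In tolerant strains 2 of the 4 haemocyte markers were higher (median 0.58, all genes 1.02% higher), and no fat body or flight muscle marker was called. The interaction passed for 3 haemocyte, 2 fat body, 1 flight muscle and 2 ovary markers, more positive in tolerant strains as for the peptidases (all genes 3.41% in that direction). The 3 male accessory gland genes in the table summed to 0 to 49.8 CPM in sensitive controls, 0 to 12.5 CPM in sensitive copper libraries and at most 0.0308 CPM in tolerant libraries. The part of these levels in the peptidase changes was not tested.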

How the data were processed

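The deposited values were whole-number counts of reads per gene, which the authors made with an nf-core RNA-seq workflow using FastQC 0.11.8, Trim Galore 0.5.0, cutadapt 1.18, STAR 2.6 against dm6 and reverse-stranded featureCounts 1.6.2, with reads assigned to several genes or places discarded. Gene symbols and positions came from an annotation table, in which 16198 of 16495 gene identifiers had a symbol.

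Counts were tested with edgeR 4.0.16 (R 4.3.3, limma 3.58.1) by the quasi-likelihood test with TMM normalization after filterByExpr on strain and treatment. Tests were fitted on the whole table with Benjamini-Hochberg adjustment over all genes tested, and standard errors were taken as the fold change over the square root of F. Class fits used strain and treatment, the interaction fit added class by treatment, and further fits covered each strain and the controls. A call needed an adjusted *p* below 0.05 and, except for interaction and among-strain tests, a fold change over 1.5. Scripts were tested on simulated data. The alternatives were DESeq2 1.42.0, other normalizations, no filter and a log2 fold change threshold of 1.5. A block for each strain and replicate number, summed counts, and fits without single strains or libraries were also used.

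Values are given for the most abundant members of each group, those with the most extreme changes in each class, up to 10 with the lowest interaction *p*, the 5 with the lowest *p* among strains, *Jon65Aiv* and *Jon99Ci*; other members named beside a result were chosen after their values were seen. The members and lists were chosen with earlier results of these data known. The authors describe the libraries of a group as biological replicates, each a separate set of flies of one inbred line. In fits of single strains and tests among strains, *p*-values therefore measure the spread between such sets. In the class and interaction fits this spread also holds differences in the copper response among strains of a class. Between classes without copper it also holds differences in level among strains.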

Additional observations from a re-analysis of the deposited data

Results flagged for a closer look

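The response to copper differed between classes for 25 peptidases by the interaction test, always with a more positive log2 fold change in tolerant strains, where 3.41% of all genes passed in that direction and 0.719% in the other. No gene passed with strains as the replicates, and 6 peptidases passed without GIM-012 and 5 without COR-018. With a block for each strain and replicate number 0 of the 25 passed, and the share of all genes under it is not given here. Among the trypsins the differences were 2.01 for *thetaTry*, 1.99 for *epsilonTry*, 1.87 for *zetaTry*, 1.47 for *betaTry*, 1.21 for *alphaTry*, 0.90 for *etaTry* and 0.78 for *kappaTry*. Among the *Jonah* genes they were 2.41 for *Jon99Fi*, 2.15 for *Jon65Aii*, 1.94 for *Jon99Fii*, 1.63 for *Jon65Ai*, 1.54 for *Jon99Ci*, 1.42 for *Jon99Cii*, 1.38 for *Jon44E*, 1.34 for *Jon99Ciii*, 1.34 for *Jon25Biii*, 1.17 for *Jon65Aiv*, 1.10 for *Jon74E* and 0.91 for *Jon65Aiii*. The carboxypeptidases *CG17633*, *CG8560*, *CG8562* and *CG32379* differed by 1.73, 1.59, 1.52 and 1.51, and the serine peptidases *yip7* and *Ser8* by 1.14 and 1.07.

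Single libraries stood apart from the other libraries of the same class and treatment in 3 of 104 combinations of gene and group examined, and chance alone gives about 1 in 20. These groups mix 3 strains. They were *betaTry* in replicate 4 of GIM-012 with copper (579 CPM), and *Jon66Cii* (1.75 CPM) and *Jon25Bii* (38.9 CPM) in replicate 4 of the AKA-018 controls.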

How the results depend on the processing

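RLE normalization, library size alone and no filter on low counts kept every count of called peptidases within 1.5 times, and moved the median log2 fold change of all genes by over 0.1 only in GIM-012, from 0.07 to -0.05 with library size alone. DESeq2 called 11 members in tolerant strains, 8 lower and 3 higher (7 by edgeR), 10 in GIM-012 (5) and 1 between classes without copper (0). Over all genes DESeq2 called 2.04%, 12.3% and 6.57% in these comparisons, and edgeR 1.53%, 5.62% and 5.36%. With a log2 fold change over 1.5, 1 member was called in tolerant strains and 1 in GIM-012 (all genes 0.293% and 0.56%). Under this threshold 2 were called in MUN-008, 0 in MUN-020 and 13 in AKA-018 (all genes 0.445%, 0.332% and 4.78%). With counts summed per strain and treatment, 0 were called in tolerant strains, 0 in sensitive strains and 0 for the interaction. In tolerant strains 19 were called without GIM-012, 1 without MUN-008 and 3 without MUN-020, and for the interaction 6 without GIM-012 and 5 without COR-018. Between classes without copper, 1, 6, 1 and 2 were called without MUN-020, AKA-018, COR-018 and JUT-008 (2.26%, 9.01%, 5.48% and 6.76% of all genes). Without the libraries with male accessory gland transcripts, added after seeing the data, 2 were called in sensitive strains and 1 for the interaction, in fits with fewer samples. The cause of the other shifts was not tested.

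Without 1 library, the count ranged from 4 to 10 in tolerant strains, 28 to 31 in sensitive strains, 0 to 14 in GIM-012, 8 to 17 in MUN-008, 5 to 20 in MUN-020, 19 to 27 in AKA-018, 18 to 27 in COR-018 and 9 to 27 in JUT-008. It ranged from 22 to 26 for the interaction, 29 to 32 for strain by treatment, 0 to 0 between classes and 34 to 36 among strains without copper. The share of all genes called also moved, from 4.51% (18 members) to 11.7% (27 members) in COR-018. Without 1 copper library of AKA-018 this share was 6.18% to 7.33%. For the interaction it was 2.47% to 6.55%, and for strain by treatment 17% to 34.4%. Where leaving out a library left 1 control of MUN-020 or AKA-018, the remaining control was assumed to vary like the other groups. Of 26 members described in full, none reversed a call, but 18 in tolerant and 24 in sensitive strains gained or lost one under some alternative. Of 728 values in tolerant strains 62 lost a call, 22 gained one and 54 had the other sign, and of 754 in sensitive strains 49, 19 and 14.

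Of 15 pairs of libraries with equal replicate numbers, 2 correlated above 0.1 (range -0.86 to 0.47). With so few libraries per group, these values cannot decide whether equal numbers were handled together. With a replicate block, 1 member was called in tolerant strains, 25 in sensitive strains, 6 in GIM-012, 12 in MUN-008, 21 in MUN-020, 26 in AKA-018, 13 in COR-018, 8 in JUT-008, 0 for the interaction (28 at an unadjusted *p* below 0.05) and 29 for strain by treatment. The shares of all genes called with the replicate block are not given here. The counts under it, the 0 and the 28 for the interaction included, therefore cannot be set against all genes. Levels of the genes with few counts, *gammaTry*, *deltaTry* and *Jon66Cii*, are less certain. Reads shared by the near-identical *gammaTry* and *deltaTry* were discarded before counting.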
